A study of Mus musculus with 4 samples.

Results

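The secretory pathway and protein folding genes described here are 40 genes whose products carry proteins into the endoplasmic reticulum (ER), fold them there and remove those that fail, together with the surface proteins and transcription factors of the plasma cell, the antibody-secreting cell that leans on this machinery most. They were taken by symbol from the 27998 genes listed for each of 4 single-cell libraries, and each symbol matched 1 row. The libraries came from mouse cells without lineage markers, sorted for the endothelial surface proteins CD31, VE-cadherin and endomucin. The Sca-1-positive gate is called type H by the labels, after a bone capillary, and the Sca-1-negative gate is called sinusoidal. Each gate gave 1 library from mice labelled Id1-/- Id3-/- and 1 from controls with the genotype Id1+/+ Id3+/-, which the sample titles call wild type. All 4 groups carried a CreER transgene driven by Cdh5, the VE-cadherin gene, and all received tamoxifen for 5 consecutive days to delete Id1. The sources used here do not give the age or number of the mice in a library.

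Secreted proteins enter the ER through the Sec61 channel, lose their signal peptide, and fold with the help of chaperones of the Hsp70 and Hsp90 families, lectin chaperones and enzymes that form disulphide bonds, while misfolded chains are drawn back to the cytosol and degraded. When unfolded protein builds up, the unfolded protein response raises many of these genes through the factors Xbp1, Atf6 and Atf4, and prolonged stress adds Ddit3, which encodes CHOP. Plasma cells are known for a greatly enlarged ER that depends on Xbp1, neutrophil precursors for packing granules with enzymes such as elastase, and blood stem and progenitor cells for a low rate of protein synthesis.

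Of 3641 barcodes, 3567 cells passed a filter of 200 genes or more and less than 10% mitochondrial unique molecular identifiers (UMIs, the counted RNA molecules), from 351 to 1857 per library with 3179782 to 11023619 UMIs. Over all pairs of libraries 4 barcodes were shared. Id3, one of the genes named as deleted, was higher in the libraries labelled knockout, with 84.9 counts per 1000000 UMIs (CPM) in type H cells against 33.0 in their control, and 84.8 CPM in sinusoidal cells against 54.7. Id1, the other, gave 2.99 CPM in the type H labelled knockout against 4.08 in its control (33 and 23 UMIs), and 26.3 CPM in the sinusoidal labelled knockout against 26.1, so it was not lower there. The deleted parts of the genes are not given, so for Id3 a transcript from a null allele cannot be told apart from exchanged labels. Whether the Cdh5-driven CreER had deleted Id1 in the cells sequenced was not tested. The term "labelled knockout" is used throughout. Defining endothelial genes were at or near 0: the summed level of 8 markers was 22.3 to 225 CPM in the classes below, and Stab2 had at most 1 UMI in any class. Cdh5 gave 87.8 to 176 CPM in dendritic cells and at most 2.52 CPM in the other classes. The classes below are defined by genes of blood cells.

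The cells were put into classes by single genes. Plasma cells were cells in which Jchain, the joining chain of polymeric antibodies, made up at least 2% of UMIs, and they numbered 108 in the type H control and 161 in the type H labelled knockout, which is 13.4% (95% interval 11.1 to 15.9) and 8.67% (7.43 to 10.0) of cells. The sinusoidal control held 2 such cells and the sinusoidal labelled knockout none, and these were not used. Jchain made up a median of 19.6% and 12.1% of their UMIs. The cells just inside and just outside the rule stood at 2.60% and 0.400% in the control and at 2.16% and 1.94% in the labelled knockout. Elane-high precursors (Elane, neutrophil elastase, at least 0.5% of UMIs) numbered 68 and 285 in the sinusoidal control and labelled knockout. Dendritic cells (at least 2 Siglech UMIs and at least 2 of 6 further genes of plasmacytoid dendritic cells) numbered 25 and 25 in the type H gate and 14 and 6 in the sinusoidal gate. Hlf-positive progenitors (at least 1 UMI of Hlf, a stem and progenitor cell factor) numbered 548 and 1254 in the type H gate and 10 and 20 in the sinusoidal gate. The plasma cells carried all 7 plasma cell markers in both libraries. Jchain set the class, and of the other markers only Pou2af1 is not itself a member gene. These markers are therefore largely the same genes as the results below and no separate check of them. They also carried progenitor markers summing to 3544 and 3188 CPM, nearly all from Ly6a, the Sca-1 gene of the gate, and monocyte markers summing to 2171 and 3524 CPM, nearly all from Ly6c2. The part of these in the values below was not tested.

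With 1 library per group no test was possible. Each value is a UMI sum per class and library in CPM, of totals that hold no immunoglobulin chain genes. Any UMIs of those chains would lower plasma cell levels and ratios by an amount not known here. Each ratio has an exact 95% interval, which covers the error of counting alone and leaves out how cells or mice vary. Unless a class is named otherwise, paired values are the control first and the labelled knockout second. Most member genes were far more abundant in plasma cells than in any other class. Over all genes, 6.36% of the 10127 measured were at least 2-fold higher in plasma cells than in the Hlf-positive progenitors of the same library in both libraries, and 30.3% were at least 2-fold lower. Among the 40 members, 36 were higher and none was lower. This count, the medians and the later plasma cell counts include Jchain, whose level in plasma cells the class rule set. The median member stood at a log2 ratio of 3.49 and 3.52, against -0.80 and -0.63 over all genes. Plasma cells held the highest level of the 4 classes for 33 members in both labels, and Elane-high precursors for 4, which were Calr, Canx, Pdia3 and P4hb. The highest class was not separated from the next by the counting interval for P4hb in both labels and for Ssr3 in the control.

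**Figure D1:**
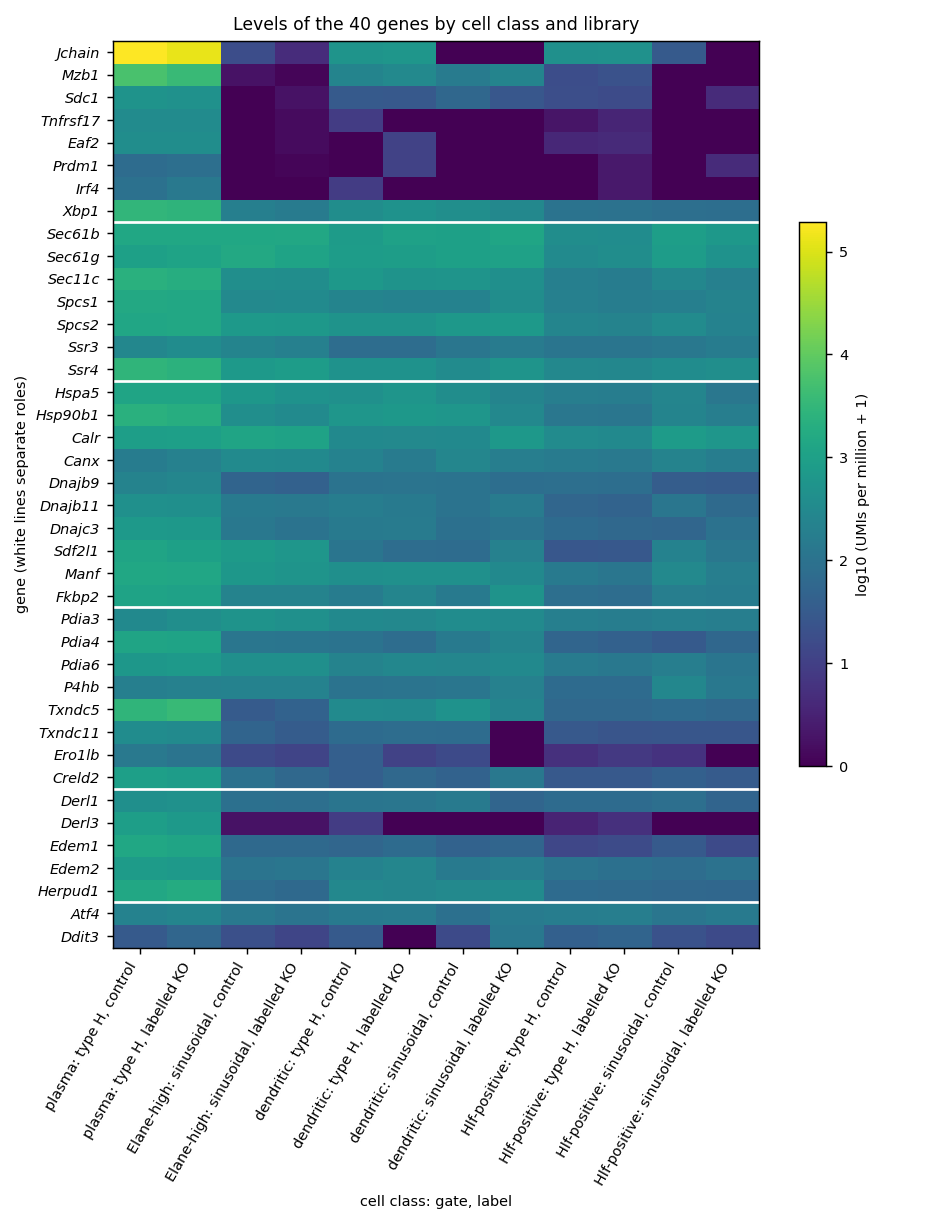
Levels of the 40 member genes (rows, ordered by role) in each class and library (columns), as log10(CPM + 1). The plasma cell columns are the brightest for 33 of 40 rows, while Calr, Canx, Pdia3 and P4hb are brightest in the Elane-high precursors.

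The plasma cell genes parted the classes most widely. Jchain gave 193357 and 128360 CPM in plasma cells, 453 and 464 CPM in the type H progenitors, 16.7 and 3.69 CPM in the Elane-high precursors, and 545 and 587 CPM in type H dendritic cells, with no UMI in sinusoidal dendritic cells. Mzb1, an ER protein of B and plasma cells that assists antibody assembly, gave 5749.6 and 3906 CPM in plasma cells and 17.2 and 20.7 CPM in the progenitors. Its plasma cell level was 335 (263 to 433) times the progenitor level in the control and 189 (161 to 223) times in the labelled knockout. All plasma cell values lay above all values of the other classes. Sdc1, the surface proteoglycan CD138, gave 514 and 467 CPM in plasma cells against 17.9 and 15.1 CPM in progenitors, which is 28.7 and 31 times. Tnfrsf17, the survival receptor BCMA, gave 358 and 355 CPM against 1.02 and 2.47 CPM, and Eaf2, a transcription elongation factor, 386 and 384 CPM against 2.82 and 3.25 CPM. For both genes the progenitor values rest on few UMIs, and plasma cells were the only class above 10 CPM.

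The transcription factors that drive plasma cell formation had few UMIs outside the plasma cell class. Prdm1, which encodes Blimp-1, gave 71.8 and 83.3 CPM in plasma cells, and Irf4 gave 92 and 139 CPM. In the control progenitors neither gene had a UMI, so against a floor of 3 UMIs over the class Prdm1 was at least 93.5-fold and Irf4 at least 119.8-fold higher in plasma cells. In the labelled knockout the ratios were 64 (33.5 to 137) and 107 (56.8 to 227). At a fixed depth of 2000 UMIs per cell, Prdm1 was found in 14.2% and 13.7% of plasma cells (38.0% and 44.7% without thinning) and in 0 of 542 and 0.165% of progenitors. Xbp1, the factor that expands the ER, gave 2959.8 and 2757 CPM in plasma cells, 102 and 96.6 CPM in progenitors, 190.2 and 159 CPM in Elane-high precursors and, over the type H and then the sinusoidal libraries, 391, 489, 409.7 and 289 CPM in dendritic cells. Plasma cells stood at 28.9 (26 to 32.2) and 28.5 (26.3 to 30.9) times the progenitors, and dendritic cells held the next level in each label. Unlike Prdm1 and Irf4, Xbp1 had UMIs in every class and library.

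Plasma cell RNA that is free in the droplets can put UMIs of these genes into other cells. Type H progenitors carried Jchain at 0.234% and 0.361% of the plasma cell level, and at a fixed depth 60% and 59.3% of them had a Jchain UMI. A plasma cell profile scaled to that Jchain level would give 78.6% and 68.3% of the progenitors' Mzb1, 81.9% and 51.9% of their Tnfrsf17 and 93.2% and 58.7% of their Derl3. For the other 36 of the 39 genes without Jchain it would give under 50%, and under 10% for 30 genes in the control and 27 in the labelled knockout. With the scaled profile taken off, the counts against all 3 classes kept within the ranges given in the closing section. The progenitor levels of those 3 genes are thus read as upper limits.

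The translocation and signal peptide genes were higher in plasma cells than in progenitors for 7 of 7, with a smaller spread. Sec11c, a catalytic subunit of the signal peptidase complex, gave 2233 and 1947 CPM in plasma cells and 189 and 168 CPM in progenitors, 11.8 (10.8 to 12.9) and 11.6 (10.8 to 12.4) times. Its accessory subunits Spcs1 and Spcs2 stood at 7.54 and 8.76 times and 5.24 and 6.21 times. Ssr4, a subunit of the translocon-associated TRAP complex, gave 2901 and 2538 CPM against 293 and 279 CPM, 9.89 and 9.1 times, and its partner Ssr3 282 and 369 CPM against 112 and 110.4 CPM, 2.53 and 3.34 times. The channel subunits Sec61b and Sec61g stood at 3.68 and 3.64 times and 3.04 and 3.07 times. The plasma cell excess ranged from 2.53-fold for Ssr3 to 11.8-fold for Sec11c in the control and from 3.07-fold for Sec61g to 11.6-fold for Sec11c in the labelled knockout, in genes whose products work at the same membrane channel.

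Among the chaperones and co-chaperones 9 of 10 were at least 2-fold higher in plasma cells than in progenitors. Hspa5, the ER Hsp70 also called BiP, gave 1235 and 1226 CPM in plasma cells, 179 and 169.6 CPM in type H progenitors and 626 and 491 CPM in Elane-high precursors, and plasma cells stood at 6.89 (6.25 to 7.6) and 7.23 (6.71 to 7.79) times the progenitors. Hsp90b1, the ER Hsp90, gave 2298 and 1932 CPM against 124 and 116 CPM in progenitors and 413 and 338 CPM in Elane-high precursors, 18.6 and 16.7 times and 5.56 and 5.72 times. Both plasma cell libraries were above every library of the other classes for both genes. The widest ratio in the group was that of Sdf2l1, a partner of the ER J-protein Dnajb11, at 46.5 (38 to 57.4) and 37 (31.9 to 43) times the progenitors, from 1250 and 1001 CPM against 26.9 and 27.1 CPM. In Elane-high precursors Sdf2l1 was at 763 and 606 CPM, so against that class it was 1.64 and 1.65 times.

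The J-proteins, which hand substrates to Hspa5, were higher in plasma cells than in progenitors as well. Dnajb11 stood at 8.16 and 9.16 times, Dnajc3 at 10.6 and 10.7 times and Dnajb9 at 2.73 and 3.28 times. Manf, a small ER protein induced by ER stress, gave 1387 and 1332 CPM against 141 and 118 CPM, and Fkbp2, a prolyl isomerase, 1142 and 1050.2 CPM against 85 and 77.3 CPM, which are 9.85 and 11.3 times and 13.4 and 13.6 times. The lectin chaperones, which hold glycoproteins while they fold, had lower ratios. Canx, calnexin, gave 163 and 213 CPM in plasma cells, 156 and 139 CPM in progenitors and 331 and 320 CPM in Elane-high precursors. Plasma cells stood at 1.04 (0.854 to 1.26) and 1.54 (1.34 to 1.76) times the progenitors and at 0.491 (0.4 to 0.599) and 0.665 (0.583 to 0.757) times the Elane-high precursors, whose values both lay above those of plasma cells. Calr, calreticulin, gave 898 and 963 CPM in plasma cells, 2.49 and 2.97 times the progenitors, and 1199 and 1108 CPM in Elane-high precursors, 0.749 (0.685 to 0.82) and 0.869 (0.816 to 0.925) times.

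Several of these genes are textbook targets of the unfolded protein response through the ER stress response element (ERSE) and its short form, ERSE-II. Of the 40 members 35 had at least 1 promoter of 300 bases (250 before and 50 after the start) in the RefSeq table for GRCm38.p6. On either strand the ERSE was found in 39 of all 32851 promoters (0.119%) and in promoters of 8 members, which were Hspa5, Hsp90b1, Calr, Canx, Dnajc3, Pdia6, Creld2 and Derl3. ERSE-II was found in 12 promoters (0.0365%), 2 of them of the members Herpud1 and Dnajb11. The element TGACGTGG, bound by Xbp1 and Atf6, was found in 222 promoters (0.676%), 2 of them of the members Txndc5 and Txndc11. The 250 bases before the start are shown for Hspa5, Hsp90b1 and Herpud1, which were highest in plasma cells, and for Calr and Canx, which hold the same element and were highest in Elane-high precursors. Capitals mark the fixed letters of the element, ERSE-II in Herpud1 and ERSE in the others, and the lower-case letters between them were free in the search. The windows, each on the strand of its gene, are chr2:34771840-34772089 (plus) for Hspa5, chr10:86705445-86705694 (minus) for Hsp90b1, chr8:94386179-94386428 (plus) for Herpud1, chr8:84846932-84847181 (minus) for Calr and chr11:50325674-50325923 (minus) for Canx.
Hspa5: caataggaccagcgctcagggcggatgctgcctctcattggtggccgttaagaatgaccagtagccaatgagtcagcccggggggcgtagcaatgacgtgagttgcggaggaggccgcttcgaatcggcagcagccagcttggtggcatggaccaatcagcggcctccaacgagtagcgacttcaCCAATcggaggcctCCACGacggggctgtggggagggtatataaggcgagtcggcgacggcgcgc
Hsp90b1: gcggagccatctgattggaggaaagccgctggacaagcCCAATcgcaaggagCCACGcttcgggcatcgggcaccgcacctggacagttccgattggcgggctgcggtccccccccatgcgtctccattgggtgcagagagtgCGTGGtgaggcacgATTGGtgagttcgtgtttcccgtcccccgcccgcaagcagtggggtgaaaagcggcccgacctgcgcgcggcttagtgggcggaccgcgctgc
Herpud1: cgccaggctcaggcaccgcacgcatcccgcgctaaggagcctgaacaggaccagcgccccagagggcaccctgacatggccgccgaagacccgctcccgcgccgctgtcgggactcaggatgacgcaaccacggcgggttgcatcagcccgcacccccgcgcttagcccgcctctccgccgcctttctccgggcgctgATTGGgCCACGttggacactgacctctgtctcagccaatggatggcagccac
Calr: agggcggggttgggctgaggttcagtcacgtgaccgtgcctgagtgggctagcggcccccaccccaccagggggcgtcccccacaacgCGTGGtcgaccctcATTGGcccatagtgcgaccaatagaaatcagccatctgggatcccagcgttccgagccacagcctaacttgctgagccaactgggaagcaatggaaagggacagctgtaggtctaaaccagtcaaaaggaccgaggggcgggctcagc
Canx: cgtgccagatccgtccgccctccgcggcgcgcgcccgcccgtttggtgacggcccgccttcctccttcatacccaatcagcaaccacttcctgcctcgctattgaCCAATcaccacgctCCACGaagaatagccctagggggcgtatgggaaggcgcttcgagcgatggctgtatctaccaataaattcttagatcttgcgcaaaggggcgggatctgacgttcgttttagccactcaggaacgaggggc
Only exact matches to the fixed letters were counted, so copies that differ in a letter are not among them. By that count Hspa5 holds 1 ERSE, at base 186 of the window, and Hsp90b1 holds 2, at bases 39 and 144, the latter on the opposite strand. Calr holds 1 on the opposite strand at base 89 and Canx 1 at base 106. Among these 4 genes the plasma cell to Elane-high ratios ran from 0.491 and 0.665 (Canx) to 5.56 and 5.72 (Hsp90b1). A match of letters is a description of the window and does not show that a factor binds there.

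Of the 8 genes of disulphide formation and oxidative folding, 7 were at least 2-fold higher in plasma cells than in progenitors. Txndc5, a protein disulphide isomerase (chr13:38500079-38528824, minus strand), gave 2869 and 3652 CPM in plasma cells, 60.9 and 59.6 CPM in type H progenitors, 32.6 and 44.7 CPM in Elane-high precursors and 338, 323, 497 and 237 CPM in dendritic cells of the type H and then the sinusoidal libraries. Plasma cells stood at 47.1 (41.2 to 54) and 61.3 (55.7 to 67.6) times the progenitors and at 87.9 (64.6 to 123) and 81.8 (71.4 to 94.1) times the Elane-high precursors, and no library of another class came near the plasma cell values. At a fixed depth of 2000 UMIs, 94.3% and 98.8% of plasma cells had a Txndc5 UMI, against 11.3% and 11.1% of progenitors (98.1% and 100% against 33.0% and 30.3% without thinning). This thinning left out 2 of the control plasma cells, and 6 and 44 progenitors.

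Pdia4, another disulphide isomerase, gave 1236 and 1160.2 CPM in plasma cells against 52.2 and 42 CPM in progenitors, 23.7 and 27.6 times. Creld2, an ER protein induced by ER stress, stood at 32.9 and 28 times, Ero1lb, an oxidase that supplies disulphides, at 31.8 and 16.5 times and the thioredoxin-like Txndc11 at 13.1 and 14 times. The classical isomerases Pdia3, Pdia6 and P4hb had lower ratios. Pdia6 stood at 3.88 and 5.3 times and P4hb at 2.71 and 3.05 times. Pdia3, which works with calnexin and calreticulin, gave 324 and 401 CPM in plasma cells, 187 and 173 CPM in progenitors and 529 and 444 CPM in Elane-high precursors, and its plasma to progenitor ratios of 1.74 (1.5 to 2.0) and 2.31 (2.08 to 2.56) lay on either side of 2-fold. For Pdia3, Calr and Canx the Elane-high precursors were the highest class in both labels, whereas Txndc5 was lowest there. For P4hb their values were also the highest, but within counting error of plasma cells in both labels.

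All 5 genes of ER-associated degradation were at least 2-fold higher in plasma cells than in progenitors, than in Elane-high precursors and than in dendritic cells. Derl3, a derlin of the channel that returns misfolded proteins (chr10:75893413-75895941, plus strand), gave 916 and 697 CPM in plasma cells, 2.3 and 4.29 CPM in progenitors and 0.796 and 0.819 CPM in Elane-high precursors, and 1 UMI in all dendritic cells together. Its plasma cell level was 398 (208 to 873) and 162 (115 to 237) times the progenitor level. Derl1, its widely expressed relative, gave 437 and 471 CPM against 68.9 and 68.6 CPM, 6.35 and 6.88 times. Edem1, a lectin that trims the sugars of misfolded glycoproteins, gave 1397 and 1210.5 CPM in plasma cells and 12.3 and 14.8 CPM in progenitors, 114 (85.2 to 155) and 81.6 (67.5 to 99.6) times. Its relative Edem2 gave 806 and 709 CPM against 109 and 90.5 CPM, 7.41 and 7.83 times. Both pairs of relatives thus hold 1 gene at over 80 times the progenitor level and 1 at under 8 times. Herpud1, a scaffold of the degradation complex, gave 1507 and 1778 CPM in plasma cells, 68.1 and 65.2 CPM in progenitors and 75.6 and 63.3 CPM in Elane-high precursors, 22.1 and 27.3 times and 19.9 and 28.1 times.

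The pair of stress transcription factors had lower ratios than most members. Atf4, a factor made when translation is held back, gave 221 and 254 CPM in plasma cells, 174 and 179.8 CPM in type H progenitors and 137 and 108 CPM in Elane-high precursors. Its plasma to progenitor ratios were 1.27 (1.07 to 1.5) and 1.41 (1.25 to 1.59). Ddit3 gave 30.2 and 53.4 CPM in plasma cells and 40.7 and 50.6 CPM in progenitors, with ratios of 0.743 (0.462 to 1.15) and 1.06 (0.804 to 1.37) whose intervals include 1. Against Elane-high precursors Atf4 stood at 1.61 (1.3 to 2.0) and 2.34 (2.03 to 2.69) times and Ddit3 at 1.65 (0.893 to 3.06) and 4.66 (3.22 to 6.75) times, past 2-fold in the labelled knockout alone. Against dendritic cells the ratios were 1.75 and 1.62 for Atf4 and 1.2 and 1.5 for Ddit3. Neither factor was at least 2-fold higher in both labels against any class.

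The same difference was seen cell by cell. The 39 genes without Jchain made up a median of 4.90% (range 2.20 to 12.4) and 4.47% (1.03 to 9.13) of the non-Jchain UMIs of a plasma cell. The medians were 1.23% and 1.08% in Elane-high precursors, 0.897% to 1.12% over the 4 dendritic groups, and 0.408% and 0.385% in type H progenitors. The highest single type H progenitor reached 0.943%, below the lowest plasma cell of either library, and Elane-high precursors reached 3.25%, within the plasma cell range. At a fixed depth of 2000 UMIs, 28 of the 40 members had a UMI in at least 50% of plasma cells in both libraries, against 37 without thinning.

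**Figure D2:**
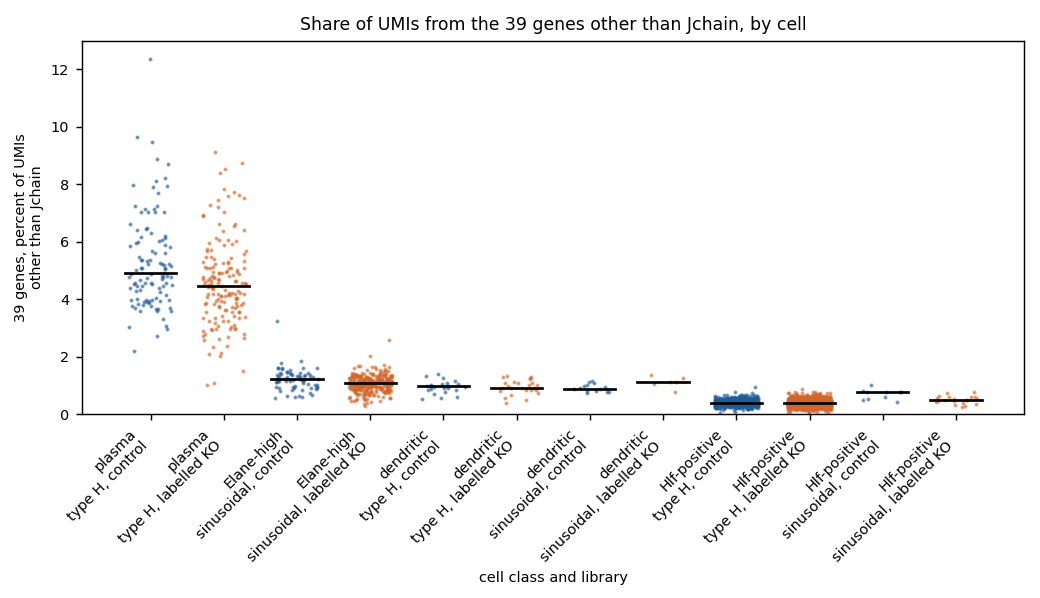
Percent of each cell's non-Jchain UMIs that come from the 39 other member genes, by class and library, with 1 point per cell and a black line at the median. Plasma cells have medians of 4.90% and 4.47%, and no type H progenitor reaches the lowest plasma cell.

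Against Elane-high precursors, a class that also makes much secretory protein, the plasma cell excess split by role. Over all genes 13.7% of 6867 measured were at least 2-fold higher in plasma cells in both labels and 21.6% were lower. Of the 40 members 27 were higher and none was lower, with a median log2 ratio of 2.38 and 2.52 against -0.35 and -0.18 over all genes. All 8 plasma cell genes, Jchain of the class rule among them, and all 5 degradation genes were higher. The others higher were 3 of 7 translocation genes, 6 of 10 chaperones and 5 of 8 disulphide genes, and none of the pair of stress factors. Sec61b gave 1436 and 1379 CPM in plasma cells and 1435 and 1459 CPM in Elane-high precursors, ratios of 1.0 (0.929 to 1.08) and 0.945 (0.896 to 0.996). P4hb stood at 0.881 (0.718 to 1.08) and 0.968 (0.843 to 1.11). Plasma cells came from the type H libraries and Elane-high precursors from the sinusoidal libraries, so class, gate and library cannot be told apart here. The median UMI count per cell also differed, at 7104 and 7484 in plasma cells against 17471 and 16610 in the precursors.

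**Figure D3:**
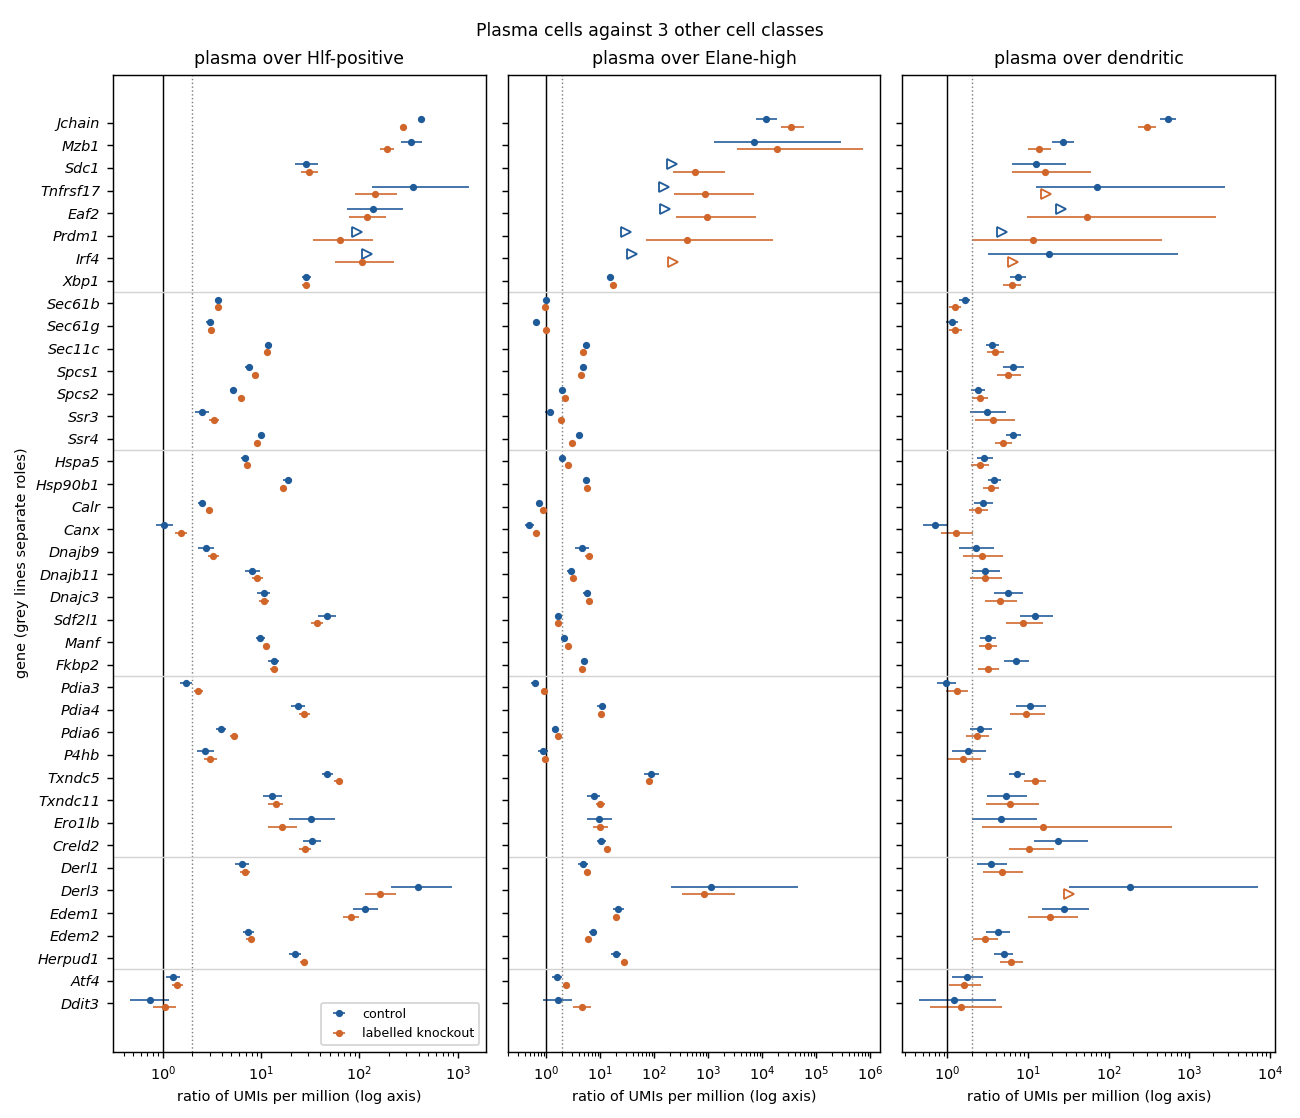
Ratio of the plasma cell level to the level in Hlf-positive progenitors, Elane-high precursors and dendritic cells (panels, log axis) for each member, with the 95% counting interval, in the control and the labelled knockout. Open triangles are lower bounds against a floor of 3 UMIs, and the dotted line marks 2-fold. Points lie to the right of the line in both labels for 36, 27 and 33 of 40 members.

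Elane-high precursors were themselves above the type H progenitors for many members. Of all 10225 genes measured, 6.86% were higher by 2-fold or more in both labels and 29.8% lower. Of 35 members 19 were higher and 4 lower. The higher ones included Sdf2l1 at 28.4 and 22.4 times, Calr at 3.32 and 3.42 times and Sec61b at 3.68 and 3.85 times, and the lower ones were Jchain, Mzb1, Sdc1 and Ddit3. With the scaled plasma cell profile taken off both classes 2 were lower, Sdc1 and Ddit3, since Jchain and Mzb1 then fell under the minimum of 20 UMIs. Within the sinusoidal gate, where only 10 and 20 progenitors were found, 6 of 31 measured members were higher and none was lower, against 4.15% and 5.56% of 5879 genes. These were Hspa5 (2.46 and 3.95 times), Sdf2l1 (3.5 and 4.88), Manf (2.06 and 2.99), Pdia3 (2.61 and 2.41), Pdia6 (2.29 and 3.81) and Edem1 (2.09 and 4.38). The sinusoidal progenitors differed from those of the type H gate, with Sdf2l1 at 218 and 124 CPM against 26.9 and 27.1 CPM, 8.12 and 4.59 times. They also carried more granulocyte precursor markers, at a sum of 5544 and 2977 CPM against 1042 and 1047 CPM, whose part in the difference was not tested.

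Dendritic cells held the next level after plasma cells for 12 members in both labels, and for 6 of these, Mzb1, Xbp1, Hsp90b1, Txndc5, Edem2 and Herpud1, it was separated from the third class by the counting interval in both. For Sdc1, Sec11c, Dnajb9, Dnajc3, Txndc11 and Derl1 it was not. Over all genes 8.05% of 4574 were at least 2-fold higher in plasma cells than in dendritic cells of both gates in both labels and 16% lower, and of the 40 members 33 were higher and none lower. The median log2 ratio was 2.20 and 2.16, or 2.22 and 2.21 with genes at 0 placed at their bound, against -0.37 and -0.34 over all genes. The 7 members not called were Sec61b, Sec61g, Canx, Pdia3, P4hb, Atf4 and Ddit3. Mzb1, which plasmacytoid dendritic cells are known to express, gave 238, 303, 161 and 237 CPM over the type H and then the sinusoidal libraries. In the sinusoidal libraries this was 11 and 9 UMIs in cells with no Jchain UMI, and in the type H libraries the scaled plasma cell profile would give 6.81% and 5.89% of the level. Plasma cells were at 27.2 (20.1 to 37.8) and 13.7 (10.0 to 19.2) times the dendritic level.

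Within the type H gate dendritic cells were at least 2-fold above progenitors for 16 of 35 measured members and below for none, where 16% of 9893 genes were higher and 6.97% lower. Mzb1 stood at 13.9 (8.75 to 21.5) and 14.7 (9.64 to 21.7) times, Xbp1 at 3.82 and 5.06 times, Txndc5 at 5.54 and 5.42 times and Herpud1 at 4.39 and 4.05 times. Within the sinusoidal gate 2 of 31 measured members were at least 2-fold higher in dendritic cells than in Elane-high precursors in both labels and 1 lower. The share over all genes was not taken. Txndc5 stood at 15.2 and 5.3 times and Herpud1 at 4.06 and 5.4 times, and Sdf2l1 was lower at 0.0958 and 0.347 times. These values rest on 14 and 6 dendritic cells. The dendritic values rest on 70 cells, and 1 of the 25 type H control cells had at least 1% haemoglobin UMIs. Without that cell 33 members were higher in plasma cells. Set against type H dendritic cells alone, 33 of 40 members were higher in plasma cells and none was lower, where 7.73% and 14.6% of 4297 genes were.

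Further genes of the pathway, in 5 lists of 93 genes, showed a weaker plasma cell excess. Against progenitors 54 of 90 measured were at least 2-fold higher in both libraries and 4 lower, where 6.36% and 30.3% of all 10127 genes were. The median log2 ratio of the lists was 1.27 and 1.41. In the list of translocon, signal recognition and glycosylation genes 17 of 23 were higher and none lower, among them Tram2, a translocation partner of Sec61 (34.5 and 23.4 times), and Spcs3 of the signal peptidase (9.03 and 9.23 times). Of the other chaperones, oxidases and glucosidases 10 of 19 were higher, such as the ER chaperone Hyou1 (13.8 and 8.3 times) and the prolyl isomerase Fkbp11 (8.1 and 12.5 times), and Fkbp7 and Cnpy3 were lower. Further degradation genes were higher for 8 of 11 and lower for none, led by Sel1l, an adaptor of the Hrd1 ubiquitin ligase (16.1 and 18.4 times). Of the transport genes between ER and Golgi 14 of 23 were higher and none lower, including the cargo receptor Lman1 (6.37 and 5.77 times).

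The last list, stress sensors and targets of Atf4 and CHOP, had 5 of 14 higher and 2 lower, where 6.36% and 30.3% of all genes were. Its share of lower genes was thus below that of all genes. The sensors Atf6 and Eif2ak3, the kinase PERK, stood at 6.19 and 8.58 times and 8.61 and 6.67 times, and the Atf4 target Asns, asparagine synthetase, at 8.84 and 12.2 times. Chac1, a CHOP target, was higher at 98.4 (15.7 to 4080) and 93.6 (34.8 to 354) times, from 1 progenitor UMI in the control. Trib3 and Nupr1, also targets of this branch, were lower, at 0.138 and 0.339 times and 0.269 and 0.343 times. Against Elane-high precursors 37 of 87 further genes were higher and 4 lower, where 13.7% and 21.6% of all 6867 genes were. Against dendritic cells 28 of 84 were higher and 2 lower, where 8.05% and 16% of all 4574 genes were.

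Plasma cells differed among themselves with their Jchain share. Levels were taken as CPM of UMIs without Jchain, and cells at 20% Jchain and over (52 control, 35 labelled knockout) were set against cells at 5% to 10% (16 and 42). Of 38 members with at least 20 UMIs in each library 8 were higher in the Jchain-rich cells with an interval above 1 in both libraries, where 3.36% of all 2295 genes were. Intervals narrow with the UMI count. Among genes with at least 200 UMIs, a minimum chosen after seeing the data, the same 8 stood out of 28 members, where 14.8% of 257 genes did. They were Mzb1, Sdc1, Xbp1, Sec61g, Sec11c, Txndc5, Derl3 and Edem1. Txndc5 gave 4178 against 2692 CPM in the control and 4797 against 3482 CPM in the labelled knockout, 1.55 (1.37 to 1.76) and 1.38 (1.26 to 1.5) times. Mzb1 gave 7165 against 5687 and 5950.3 against 4463 CPM, 1.26 (1.15 to 1.38) and 1.33 (1.23 to 1.44) times. The steps were small beside the differences between classes.

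In the Jchain-rich cells of both libraries the intervals of 4 of the 38 members lay below 1, where 2.22% of the 2295 genes did, and of 4 of the 28 members with at least 200 UMIs, where 9.34% of 257 genes did. These were the chaperone Hspa5 and the disulphide genes Pdia4, Pdia6 and Creld2. The disulphide gene Txndc5 was among the 8 higher, and no other chaperone or disulphide gene passed in either direction in both libraries. Creld2 gave 747 against 1931 CPM in the control and 837 against 1159.7 CPM in the labelled knockout, 0.387 (0.318 to 0.47) and 0.722 (0.596 to 0.871) times. Hspa5 gave 1102 against 1678 and 1304 against 1580 CPM, 0.657 (0.547 to 0.79) and 0.825 (0.706 to 0.962) times. The control 5% to 10% band holds the control plasma cell with the highest share of member genes, 12.4% of non-Jchain UMIs. Over control plasma cells the highest level was 18975 CPM for Creld2 and 11385 CPM for Hspa5, against medians of 817 and 1190 CPM. The part of single cells in these ratios was not tested. Other genes moved with the Jchain share as well. Ly6c2 gave 348 CPM in Jchain-rich cells against 7733 CPM at 5% to 10% in the control, and 1164 against 4660 CPM in the labelled knockout, while Cd79a, a signalling chain of the B cell receptor, gave 3197 against 876 CPM and 2881 against 972 CPM. Female-type cells, with an Xist UMI but none from Y-linked genes, made up 14 of 52 against 10 of 16 cells in the control and 4 of 35 against 4 of 42 in the labelled knockout. The part of these in the differences was not tested. Male-type cells have Y-linked UMIs but none of Xist. They made up 22 of 52 against 3 of 16 cells in the control and 11 of 35 against 25 of 42 in the labelled knockout. Among them 2 of 35 members were higher and 5 lower, where 3.6% and 2.84% of 916 genes were. The higher ones were Mzb1 and Sec11c, so Txndc5 was not kept. The lower ones were Hspa5, Fkbp2, Pdia4, Creld2 and Herpud1, so Pdia6 was not kept. These male-type values rest on 3 control cells at 5% to 10% Jchain.

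**Figure D4:**
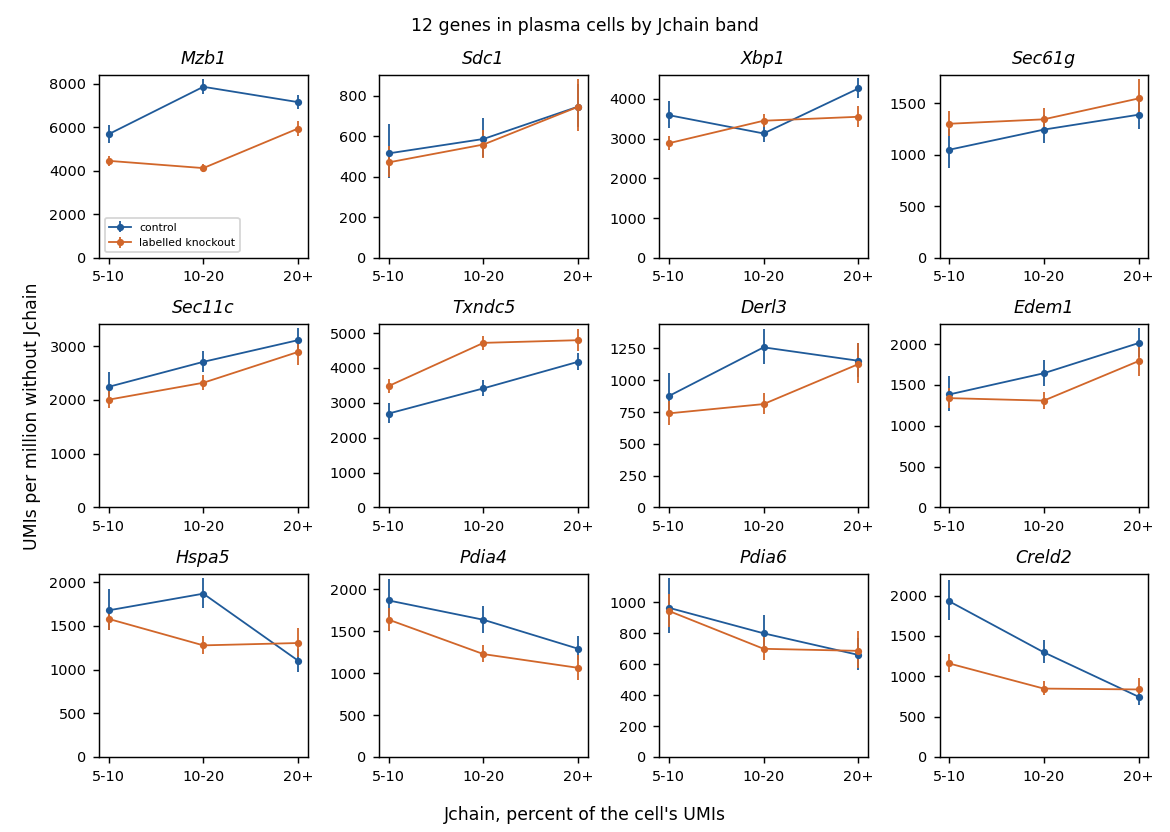
Levels of 12 member genes (CPM of UMIs without Jchain) in plasma cells at 5 to 10%, 10 to 20% and 20% or more Jchain, for the type H control and labelled knockout, with 95% counting intervals. Mzb1 and Txndc5 are higher in the last band than in the first in both libraries, and Creld2 and Hspa5 are lower. The first band of the control holds 16 cells, and the part of single cells was not tested.

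Between the labels, few members differed by 1.5-fold in plasma cells. Over all genes 17.7% of 6692 were at least 1.5-fold higher in the library labelled knockout and 5.32% lower, 23.0% in all. Of the 40 members 2 were higher and 1 lower, so the members' share was below that of all genes, and their median log2 ratio was -0.03 against 0.13. Ratios scatter more at low counts, and 38 of the 40 members but 1123 of the 6692 genes had at least 200 UMIs. Shares past 1.5-fold among those genes alone were not taken, so the lower share is not read as less change. The lower member was Jchain, at 128360 against 193357 CPM, a ratio of 0.664 (0.659 to 0.668). Because the class rule sets a lowest Jchain share, this compares levels within the rule only. In cells at 5% Jchain and over the log2 ratio moved from -0.59 to -0.48, short of 1.5-fold. Mzb1, at 3906 against 5749.6 CPM, was next with 0.679 (0.653 to 0.707). With UMIs without Jchain as the denominator it stood at 0.629, past 1.5-fold, and the count became 1 member higher and 2 lower. Cells at 20% Jchain and over were 48.1% of control and 21.7% of labelled knockout plasma cells. Within that band Mzb1 gave 7165 CPM in the control and 5950.3 in the labelled knockout on this denominator. At 5% to 10% it gave 5687 and 4463 CPM, and both differences were short of 1.5-fold. The part of the Jchain shares in the label ratio was not tested.

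The higher members were Irf4 and Ddit3. Irf4 gave 139 against 92 CPM, from 177 against 73 UMIs, a ratio of 1.51 (1.14 to 2.01) that fell to 1.39 with UMIs without Jchain as the denominator. Ddit3 gave 53.4 against 30.2 CPM, from 68 against 24 UMIs, a ratio of 1.77 (1.09 to 2.94), and 1.61 on that denominator. Counting intervals lay above 1 for 8 of the 40 members and below 1 for 12, where 11.3% and 3.02% of the 6692 genes did. Among genes with at least 200 UMIs these were 7 and 12 of 38 members, against 26.1% and 8.73% of 1123 genes. They included Txndc5 at 1.27 (1.21 to 1.34), Canx at 1.31 and Herpud1 at 1.18 on the higher side, and Derl3 at 0.761, Sdf2l1 at 0.801 and Hsp90b1 at 0.841 on the lower. These intervals leave out how cells vary. Creld2, also below 1 at 0.854 (0.777 to 0.938), reached 18975 CPM without Jchain in 1 control cell, against a median of 817 CPM. The part of such cells was not tested. The denominator without Jchain moved the median of all genes from 0.13 to 0.02 and that of the members from -0.03 to -0.14 on the log2 scale.

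The plasma cells of the libraries differed in make-up. Another class rule was also met by 8 of 108 control and 25 of 161 labelled knockout cells. Of the female type were 33 control and 20 labelled knockout cells. Within the female-type cells the Jchain ratio was 0.656, and within male-type cells it was 0.581. The Mzb1 ratios were 0.600 and 0.615 and the Ddit3 ratios 2.49 and 1.84 in the same order. Irf4 stood at 1.16 (0.633 to 2.10) in the first and 1.88 (1.19 to 3.09) in the second, so it was short of 1.5-fold in the female-type cells. T and NK cell markers summed to 71.5 CPM in the labelled knockout and 2.52 CPM in the control plasma cells, cycling markers to 88.8 and 22.7 CPM, and their part was not tested. Of the further lists, 4 of 13 measured stress sensors and targets were at least 1.5-fold higher in the labelled knockout and none was lower, beside the 17.7% and 5.32% of all genes. The counts higher were 2 of 23 for translocon, signal recognition and glycosylation genes, 2 of 17 for other chaperones, oxidases and glucosidases, 3 of 24 for transport genes and none of 11 for further degradation genes, of which 1 was lower.

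**Figure D5:**
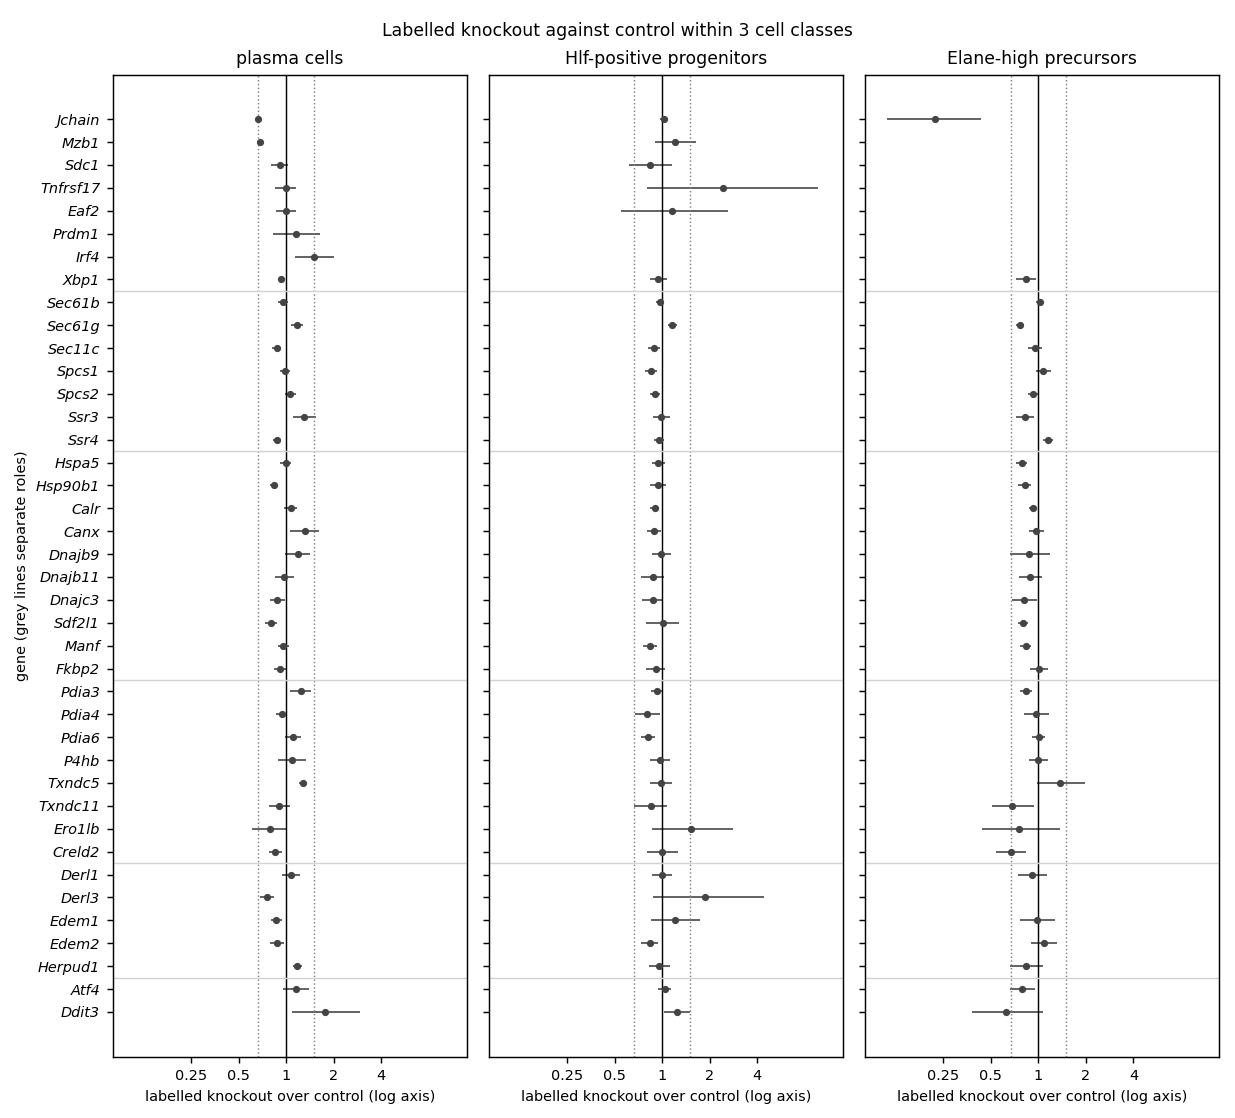
Ratio of the library labelled knockout to the control (log axis) for each member in plasma cells, Hlf-positive progenitors and Elane-high precursors, with 95% counting intervals and dotted lines at 1.5-fold. Genes with under 20 UMIs, or with none in 1 library, are not drawn. In plasma cells Jchain lies below the lower line, and Irf4 and Ddit3 lie above the upper one.

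In the progenitors of the type H gate 3 of 38 measured members were at least 1.5-fold higher in the labelled knockout and none lower, where 5.83% and 2.75% of 11502 genes were, 8.57% in all. These were Tnfrsf17 at 2.41 (0.802 to 9.75), Derl3 at 1.86 (0.872 to 4.43) and Ero1lb at 1.52 (0.866 to 2.82), all with intervals that include 1. Tnfrsf17 and Derl3 are genes for which the scaled plasma cell profile gives most of the progenitor level. The lowest was Pdia4 at 0.804 (0.673 to 0.963). Intervals lay above 1 for 2 of the 38 members and below 1 for 9, where 6.03% and 10.9% of the 11502 genes did. Among genes with at least 200 UMIs these were 2 and 9 of 32 members, against 7.33% and 16.8% of 6443 genes. Prdm1 and Irf4 each had 0 control UMIs and 10 from the labelled knockout, under the minimum of 20. The members' median log2 ratio was -0.07 against -0.04 over all genes. Beside these values, neutrophil markers summed to 502 CPM in the labelled knockout and 8.96 CPM in the control progenitors, and their part was not tested.

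In Elane-high precursors none of 33 measured members was higher and 2 were lower, where 10.1% and 8.68% of 9057 genes were, 18.8% in all. Ddit3 gave 11.5 against 18.3 CPM, from 56 against 23 UMIs, a ratio of 0.627 (0.379 to 1.07). Jchain gave 18 against 21 UMIs, a ratio of 0.221 (0.111 to 0.435), at levels under 20 CPM. Intervals lay below 1 for 14 of the 33 members and above 1 for 1, where 6.49% and 5.52% of the 9057 genes did. Among genes with at least 200 UMIs these were 13 and 1 of 30 members, against 9.93% and 9.78% of 3344 genes. Those below 1 included Hspa5 at 0.785 (0.724 to 0.852), Sdf2l1 at 0.794 (0.738 to 0.855) and Creld2 at 0.671 (0.54 to 0.84), and the one above 1 was Ssr4 at 1.15 (1.07 to 1.24). The members' median log2 ratio was -0.20 against -0.01. Neutrophil markers summed to 6503 CPM in the labelled knockout and 3523 CPM in the control, erythroid markers to 41.2 and 2183 CPM, and their part was not tested.

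In dendritic cells of both gates 1 of 30 measured members was higher and none lower, where 14.6% and 11.1% of 2533 genes were, 25.6% in all. That gene was Fkbp2, with 46 against 32 UMIs and a ratio of 2.04 (1.27 to 3.3). Intervals lay above 1 for Fkbp2 and Sec61b and below 1 for none, where 5.65% and 3.47% of the 2533 genes did. The other 10 members had under 20 UMIs over the 70 cells. The median log2 ratio was 0.13 against 0.08. Id3 stood at 7.17 (1.77 to 62.7) in plasma cells and at 2.43, 2.34 and 1.86 in progenitors, Elane-high precursors and dendritic cells, higher in the library labelled knockout in each class.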

How the data were processed

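Libraries were made on the 10x Genomics Chromium and read with 26 and 57 cycles, per the labels' protocols. The authors deposited, per library, a matrix of counts of UMIs per gene and barcode, made with Cell Ranger and Seurat on mm10 per the submitters' processing notes. The sources used here do not give versions. Whole-number values were taken as raw counts. No row is an immunoglobulin chain gene, so these were not analysed here and are not in the totals. Plasma cell levels, ratios and shares of UMIs are thus relative to totals without antibody chains. None of the alternatives could add them, so members near 2-fold might not keep their call with them counted.

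Counts were summed per library and class (sums scaled to counts per 1000000, CPM) with Python 3.11.15, numpy 2.4.6, scipy 1.17.1 and pandas 2.3.3. Figures were drawn with matplotlib 3.10.9. Intervals are exact 95% intervals (Poisson for sums, conditional on the total for ratios, Clopper-Pearson for shares). The ratio script was tested on simulated data. With 1 library per group no test was run. A difference between classes was counted at 2-fold in both labels with at least 20 UMIs in each, and one between labels at 1.5-fold with at least 20 UMIs. A log2 ratio added 0.5 UMIs to each sum. A cell had 1 class, in the order plasma, Elane-high, dendritic, Hlf-positive. Shares of cells used 2000 UMIs per cell, and cells with fewer were left out. No doublet caller was run. Cells meeting more than 1 class rule, or with both Xist and Y-linked UMIs, were left out in an alternative. Median UMIs per cell were 5597 to 15428 per library. Alternatives changed the denominator, the cell filter, the UMI minimum, the class rules, free RNA and the sex of the cells. All 40 members are named, and of the further lists the largest ratios called in both libraries, up to 5 per list and direction, were eligible. The members and lists were chosen with earlier results of these data known. Gene positions are from GENCODE release M21 and promoters from RefSeq, both on GRCm38, the mm10 assembly. The comparisons of dendritic and Elane-high cells with progenitors, of dendritic cells by gate or haemoglobin, and of Jchain shares were chosen after seeing the data.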

Additional observations from a re-analysis of the deposited data

Results flagged for a closer look

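The Ddit3 ratio between the labels passed 1.5-fold upward in 1 class and downward in another. The ratio of the library labelled knockout to the control was 1.77 (95% counting interval 1.09 to 2.94) in plasma cells of the type H gate and 0.627 (0.379 to 1.07) in Elane-high precursors of the sinusoidal gate. The difference between the classes was not tested, since each value comes from 1 library per label, and class and gate cannot be told apart.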

How the results depend on the processing

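No paired analysis was possible because each group is 1 library and the labels give no replicate numbers. The class counts held under every alternative run: 36 to 37 members higher than in Hlf-positive progenitors, 27 to 30 higher than in Elane-high precursors and 33 higher than in dendritic cells. The counts of Elane-high over Hlf-positive cells were 18 to 19 higher (4 to 9 within the sinusoidal gate) and 2 to 5 lower, and those of dendritic over Hlf-positive cells 13 to 20. Label counts moved more. In plasma cells 3 members became 7 in female-type cells, and UMIs without Jchain as the denominator turned 2 higher and 1 lower into 1 and 2. With means over cells 3 were called, 2 of them the same. So it was without cells that met more than 1 class rule or had Xist and Y-linked UMIs. At a Jchain cut of 1% 1 was higher and 1 lower, and at 5% 2 were higher and none lower. In Hlf-positive progenitors 3 became 1 with at least 50 UMIs and 5 with no minimum, and Tnfrsf17 reversed to a log2 ratio of -1.14 in female-type cells. In Elane-high precursors 2 became 1 with at least 50 UMIs, 7 with no minimum, 4 in male-type cells (Y-linked UMIs, no Xist) and 7 in female-type cells (Xist, no Y-linked UMIs). In dendritic cells 1 became 6 under the strict cell filter (at least 500 genes and under 5% mitochondrial UMIs), 3 with means over cells, 8 with no minimum, 2 with at least 5 Siglech UMIs, 7 in male-type and 2 in female-type cells. Among male-type cells 2 members in place of 8 were higher at high Jchain shares, with 3 control cells in the lower band. Where fewer cells or genes were compared the counts rest on fewer UMIs, and otherwise the cause was not tested. The planned split of plasma cells by antibody class was not run, since immunoglobulin chain genes were not analysed here, and the planned denominator without them became UMIs without Jchain. That denominator moved the median log2 plasma to progenitor ratio of all genes from -0.80 to -0.49 in the control and from -0.63 to -0.44 in the labelled knockout. Depth limits the dendritic class most, where 10 members had under 20 UMIs.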
